A study of Mus musculus with 10 samples.

Results

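Among the autosomal regions read in prospermatogonia, 390 differed most between control pools, that is, between samples that had received no arsenic. DNA methylation had been measured by reduced representation bisulfite sequencing (RRBS), which cuts DNA at the MspI site CCGG and so reads mainly CpG-rich fragments, in 5 control and 5 arsenic pools. A region was a stretch of 5 or more CpGs with no gap over 100 b between them, both strands of a CpG counted once, and with 200 or more summed calls in each of the 10 pools. Its level was the methylated calls divided by all calls, in percent. Of 258876 stretches, 42288 were eligible, and the 390 were selected on 1 measured value, the standard deviation (SD) of the level over the 5 control pools, which had to reach 12 percentage points. For this reason, control values below are a description. The arsenic pools took no part in the choice.

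The labels name the cells as prospermatogonia from mouse testis and the groups as control and arsenic. According to the methods of the study, C3H/HeN dams drank tap water or tap water with sodium arsenite during gestation. By the same methods, cells of fetal testes were separated magnetically with an antibody against Thy1. The testes of many embryos made 1 pool, with few testes from any 1 dam. A pool is therefore a mixture of animals, and levels within it are averages over animals and over whatever cells the separation kept. RNA was not part of these data, so the cell type could be compared only with regions whose methylation differs between germ and somatic cells. Maternal imprints lose their methylation in fetal male germ cells and are methylated on 1 parental copy in somatic cells. The 12 promoter regions in or near maternally imprinted genes, which need not be the imprints themselves, averaged 21.0 to 24.0% in control pools. In the arsenic pools they averaged 16.8 to 28.1%. Promoters of germline genes had been listed as unmethylated in germ cells and methylated in somatic cells. The 11 regions at them averaged 53.2 to 58.8% in control and 45.7 to 68.3% in arsenic pools, levels well above those listed for germ cells. The 12 regions at paternally imprinted genes averaged 26.4 to 30.8% and 23.4 to 31.9%. None of these lists stood near 0 or near full methylation in any pool, and the part of cell mixture in the spread between pools was not tested.

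Prospermatogonia are the resting male germ cells of the late fetal testis. After the erasure of methylation in primordial germ cells, they receive new methylation from DNMT3A, helped by DNMT3L, and at retrotransposons from DNMT3C. CpG islands stay mostly unmethylated. A region at an intermediate level in such a population can hold a mixture of methylated and unmethylated molecules, and the share of each can vary from one sample to the next. Counting alone also gives spread, because each pool is read a limited number of times.

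The sequences of several of the regions show what such a region is. They are given 5′ to 3′ on the plus strand of GRCm38 (mm10), with the CpGs read here in capitals. The region in a coding exon of Csmd2 (chr4:128395005-128395167, 13 CpGs) had the largest control SD. The region in the promoter of the gene model Gm9923 (chr10:72309199-72309320, 17 CpGs) had the largest arsenic SD among the 10 most variable, and that in the promoter of Hsf5 (chr11:87616976-87617103, 17 CpGs) belongs to a testis-expressed heat shock factor of meiotic cells.
Csmd2: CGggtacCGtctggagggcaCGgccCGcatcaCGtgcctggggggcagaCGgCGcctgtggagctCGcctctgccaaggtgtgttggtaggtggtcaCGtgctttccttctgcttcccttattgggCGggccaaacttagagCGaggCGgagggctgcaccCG
Gm9923: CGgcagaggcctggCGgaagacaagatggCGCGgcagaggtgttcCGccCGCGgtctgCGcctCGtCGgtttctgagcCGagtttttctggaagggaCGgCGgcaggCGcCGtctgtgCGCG
Hsf5: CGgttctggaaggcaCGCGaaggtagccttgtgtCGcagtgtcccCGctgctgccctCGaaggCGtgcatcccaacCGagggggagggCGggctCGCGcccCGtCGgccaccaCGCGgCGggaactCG

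In Csmd2, which encodes a large membrane protein with CUB and sushi domains, the control pools 1 to 5 stood at 29.4, 44.1, 93.4, 73.1 and 74.2% (SD 25.7). The arsenic pools 1 to 5 stood at 41.5, 54.0, 64.7, 81.7 and 77.4% (SD 16.6). Both groups thus ran from under 50% to over 70%, and their means, 62.8 and 63.8%, were close. The Gm9923 promoter was at 75.5, 85.4, 43.1, 40.2 and 82.2% in control (SD 21.9) and at 22.2, 68.0, 70.3, 75.3 and 78.6% in arsenic (SD 23.1). Control pools 3 and 4 were the low ones there, whereas in the arsenic group pool 1 alone was low. Of the 50-base words of this region, 76.9% occurred at a second place in the genome, so reads of another copy may be counted in it. The Hsf5 promoter, all of whose 50-base words were unique, split the control pools into 48.2, 50.3 and 41.8% against 84.5 and 77.9% (SD 19.3), while 4 arsenic pools lay between 67.3 and 71.8% and arsenic pool 1 at 44.0% (SD 11.7).

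**Figure D1:**
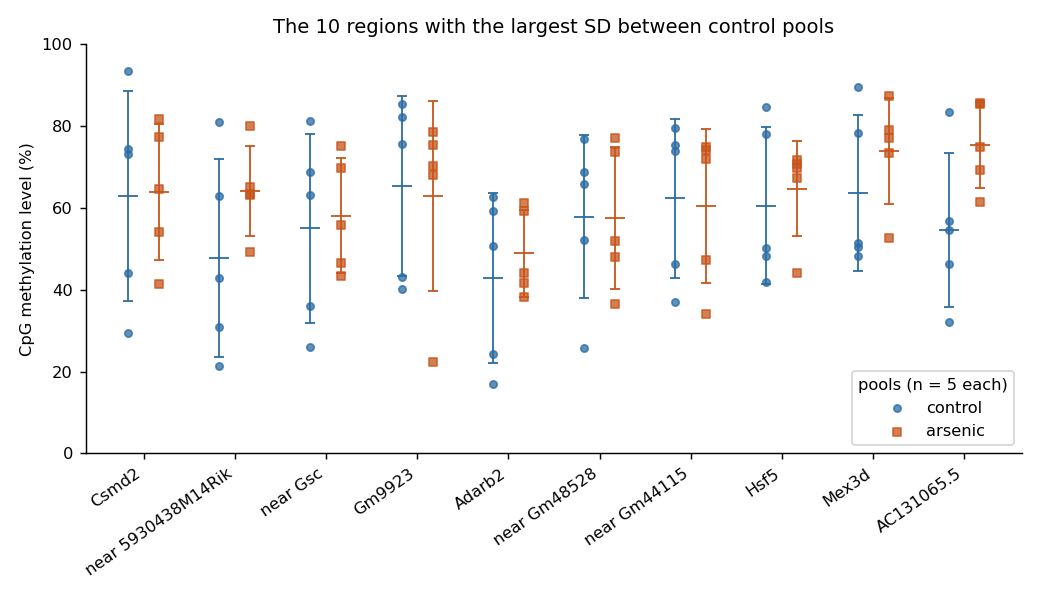
Methylation level in percent (vertical axis) in each of the 5 control pools (circles) and 5 arsenic pools (squares) of the 10 regions with the largest SD between control pools, with the mean and SD of each group as bars. The control pools run over 40 points or more in all 10, and the 2 groups overlap in every region.

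The other 7 regions with the largest control SD lay in different parts of genes or between them. One lay in a coding exon of Adarb2, a brain relative of the RNA-editing enzymes (control SD 20.8, arsenic SD 10.6). Others lay in the 3′UTR of the RNA-binding protein gene Mex3d (control SD 19.01, arsenic SD 12.9) and in the promoter of AC131065.5 (control SD 18.7, arsenic SD 10.4). The remaining 4 were intergenic, nearest to 5930438M14Rik (control SD 24.1, arsenic SD 10.96), the homeobox gene Gsc (23.1 and 14.0), Gm44115 (19.4 and 18.7) and Gm48528 (arsenic SD 17.4). The region near Gm48528 was soft-masked as a repeat over its whole length, with a 50-base word found up to 28 times in the genome. In 8 of the 10 regions the arsenic SD was below the control SD by at least 1 point, which the choice by a high control SD favours.

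Within the control group, no pool stood apart throughout. In 148 of the 390 the widest gap set 1 low pool apart and in 101 it set 1 high pool apart, while 70 split as 2 low and 3 high and 71 as 3 low and 2 high. Each control pool was the highest in some regions and the lowest in others, as control pools 1 to 5 were highest in 78, 84, 50, 103 and 75 regions and lowest in 72, 103, 61, 90 and 64. The mean level over the 390 was almost even across them, at 56.5, 54.9, 55.2, 56.5 and 56.6%. Control pools 2 and 4, which were most often at an end, had the lowest median coverage per cytosine of all pools (25 and 27, against 32 to 40 in the others). The control pool farthest from the median of the 5 was the one with the fewest calls per CpG in 126 regions (32.3%), compared with 23.2% of the other regions at a middle level.

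For 5 members the control mean was under 20%. In 4 of these, whose CpG-dense sequences follow, a single control pool held nearly all of the methylation of its group, and they are shown because they are the simplest form of a difference between control pools.
Hipk2: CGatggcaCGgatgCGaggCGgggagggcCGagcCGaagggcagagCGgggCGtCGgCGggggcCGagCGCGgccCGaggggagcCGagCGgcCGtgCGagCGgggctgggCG
Rnf19a: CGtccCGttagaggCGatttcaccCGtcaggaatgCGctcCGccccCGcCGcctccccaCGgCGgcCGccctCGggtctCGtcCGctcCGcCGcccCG
4930532G15Rik: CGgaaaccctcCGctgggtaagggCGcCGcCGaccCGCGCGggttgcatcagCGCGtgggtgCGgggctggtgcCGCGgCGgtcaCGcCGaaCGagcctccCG
Nanos1: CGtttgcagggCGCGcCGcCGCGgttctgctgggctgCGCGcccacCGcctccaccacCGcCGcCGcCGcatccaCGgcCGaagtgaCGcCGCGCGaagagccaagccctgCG

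The promoter of the kinase gene Hipk2 (chr6:38876328-38876440, 20 CpGs) was at 28.6% in control pool 4 (76 of 266 calls) and at 1.02 to 1.57% in the other control pools, with all arsenic pools at or below 0.966%. In intron sequence 426 b inside the ubiquitin ligase gene Rnf19a (chr15:36282624-36282721, 17 CpGs), control pool 4 was at 33.9% (86 of 254 calls), and no other pool passed 2.27%. For the promoter of 4930532G15Rik (chr1:185363227-185363329, 18 CpGs), which lies 234 b downstream of a TSS of the tRNA synthetase gene Eprs, control pool 2 was at 31.5% (98 of 311 calls), control pool 1 at 4.19% and the remaining pools at or below 1.40%. These 3 regions were read on 1 strand only, with 13.3, 14.9 and 17.3 calls per CpG in the pool that stood out, against lowest values of 13.4, 13.2 and 15.9 among the other pools. The median over single CpGs in that pool was 29.7, 37.5 and 33.3%, so the methylation was spread along the region and not at 1 CpG. The fifth such region, the promoter of Gm44732 (chr7:143459346-143459450), was of another kind, with control pools at 3.93, 31.7, 14.0, 28.3 and 9.38% and arsenic pools at 3.99, 15.99, 32.5, 25.1 and 9.05%.

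Nanos1, a member of the Nanos family of RNA-binding proteins, had its member in the coding exon (chr19:60756642-60756754, 20 CpGs, 711 b from the TSS), and there both strands were read at all 20 CpGs. Control pool 2 stood at 35.5%, and the other control pools between 0.296 and 1.29%. On the plus strand 54.4% of 557 calls of control pool 2 were methylated, whereas on the minus strand none of 297 calls was (0 of 297 calls, which allows a share of up to 1.01%). The strands were unequal in the same way in arsenic pool 5, where the plus strand was at 24.9% of 473 calls and the minus strand at 0 of 492 calls, which allows a share of up to 0.610%. In arsenic pool 1 the order was turned, with 0 of 1294 calls on the plus strand (up to 0.232%) and 8.73% of 1317 calls on the minus strand. These limits take each call as independent. Calls of 1 read are not, so the limits are too low even for counting error. In a directional bisulfite library the reads of the 2 strands come from different molecules.

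**Figure D2:**
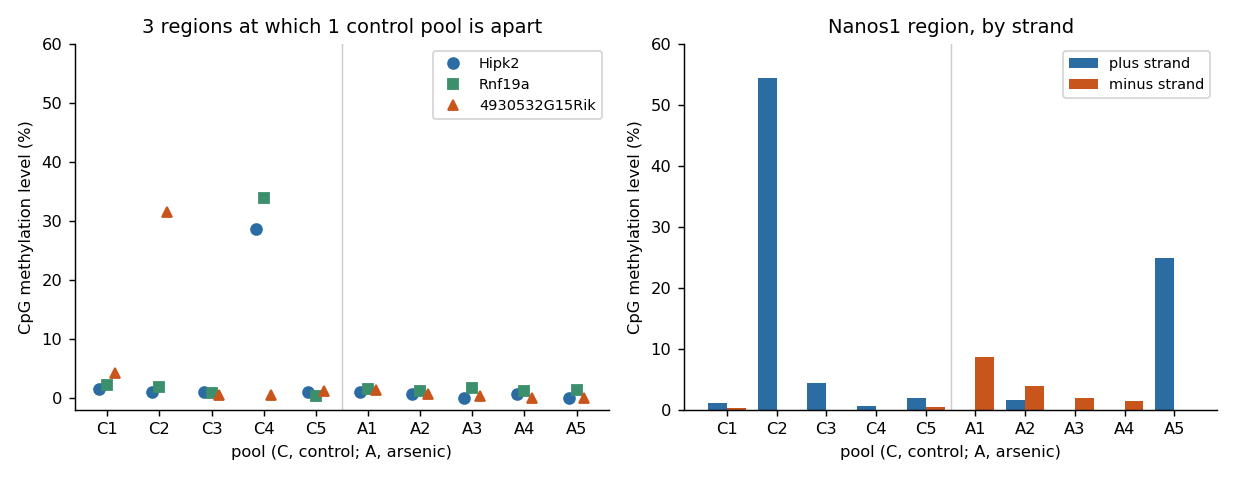
Methylation level in percent (vertical axis) by pool (horizontal axis, C1 to C5 control and A1 to A5 arsenic). The left panel shows the 3 regions at which 1 control pool stood at 28.6 to 33.9% and the rest under 5%, and the right panel the Nanos1 region by strand, at 54.4% on the plus strand and 0% on the minus strand in C2.

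For the other members, strands could be compared in 91 regions with at least 100 calls on each strand in every pool. The deviations of the control pools from their group mean on one strand and on the other had a correlation of 0.449 over 455 points in the 91 regions, against 0.0247 in 7942 other regions at a middle level. The rule used the sum of both strands, which raises this correlation, so it is given as a description. In the arsenic pools, which the rule did not use, the correlation was 0.413 in the members and 0.392 in the others. A gap of at least 40 points between strands in at least 1 arsenic pool was seen in 7 of the 91 members (7.69%) and in 1.23% of the others, and the median gap was 9.37 against 7.11 points. Neighbouring eligible regions beyond an MspI site, at a median distance of 698 b, were found for 51 members, but only 2 of these neighbours were members. Over the 35 neighbours at a middle level, the median control SD was 5.24 points, close to the 5.01 of all 17396 regions at that level. Deviations of the control pools in the member and in its neighbour had a correlation of -0.122 (175 points in 35 regions). In the arsenic pools the same correlation was 0.572, against 0.454 for the other regions, and 0.327 against 0.196 after the median shift of each pool had been taken out. Within a region, the pool highest over the whole was also highest at 72.4% of the 3726 single CpGs, which share reads.

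Of the 390, 383 had a control mean between 20 and 80%, 5 lay below and 2 above this range. The 390 were therefore set beside the 17031 other eligible regions with an arsenic mean level of 20 to 80%, called middle-level regions here, and 365 members lay in the same range of arsenic means. Compared with the middle-level regions, the members were shorter and richer in CpGs. Their median length was 155.5 b against 194 b, their median density 5.25 against 3.79 CpGs per 100 b, their GC content 57.3 against 52.5%, and their ratio of observed to expected CpGs 0.70 against 0.59. Sequence with the makeup of a CpG island (a ratio of at least 0.6 and at least 50% GC) made up 222 members (56.9%). The share was 28.2% of the middle-level regions and 48.5% of all eligible regions. The members were also read less deeply, with a median of 48.8 calls per CpG in control against 64.7, and 56.9 against 74.2 in arsenic.

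Coding exons held 94 members (24.1%), against 14.0% of the middle-level regions and 13.6% of all eligible regions. Promoters, from 1000 b before to 100 b after a TSS, held 45 (11.5%), against 7.19% of middle-level regions and 25.02% of all eligible regions. Introns held 96 (24.6%), against 30.9% of middle-level regions and 26.8% of all eligible regions. Intergenic sequence held 119 (30.5%), below the 41.9% of middle-level regions but above the 27.4% of all eligible regions. Noncoding exons held 16, 3′UTRs 13 and 5′UTRs 7. A TSS lay within 1 kb of 66 members (16.9%), above the 10.6% of middle-level regions but below the 35.6% of all eligible regions. Soft-masked repeats covered over 50% of the length of 71 members (18.2% against 20.4%), and 91 had a 50-base word at more than 1 place (23.3% against 22.0%), so these shares were close to those of the middle-level regions. On single chromosomes the members made up from 0.579% (chromosome 3) to 1.51% (chromosome 10) of eligible regions.

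**Figure D3:**
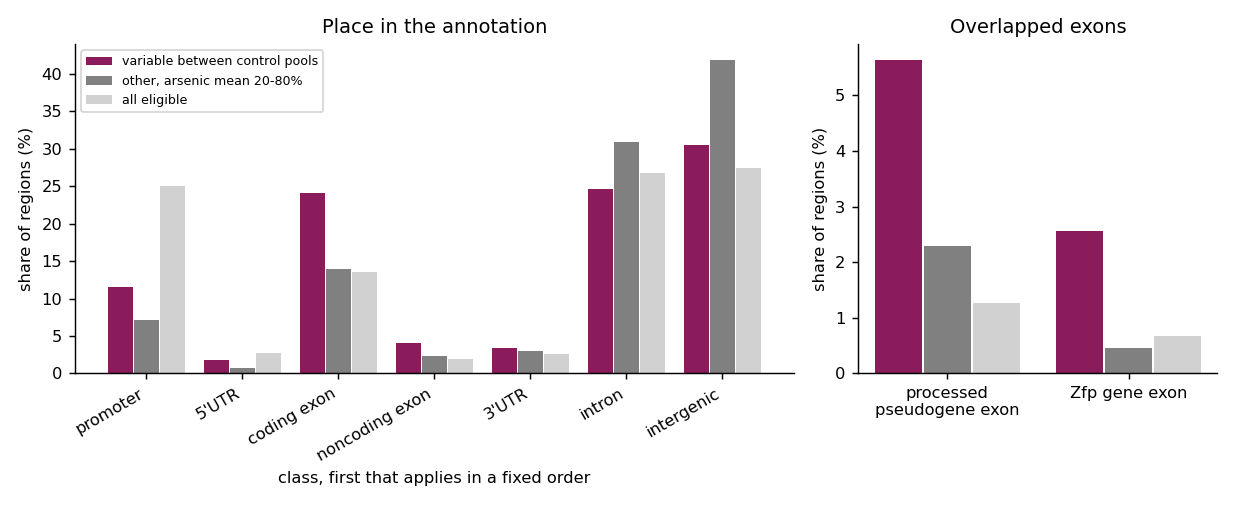
Share of regions in percent (vertical axes) by annotation class (left) and by overlap with exons of processed pseudogenes and of Zfp genes (right), for the 390 members, the 17031 other middle-level regions and all 42288 eligible regions. Coding exons hold 24.1% of the members and 14.0% of the middle-level regions.

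Some kinds of gene recurred among the members and were picked out after their names had been seen. Exons of processed pseudogenes, which are copies of spliced mRNAs put back into the genome, were overlapped by 22 members (5.64%), against 2.30% of the middle-level regions. Exons of Zfp genes, which mostly encode zinc finger proteins, were overlapped by 10 (2.56%), against 0.464%. Zfp13 and Zfp865 each had 2 members in coding exons. In the first region of Zfp13 the control SD was 18.1 and the arsenic SD 14.5, and in the region of Zfp775 13.4 and 15.8. The arsenic pools bear on the pseudogenes without the rule: among middle-level regions that were no members, those in exons of processed pseudogenes had a median arsenic SD of 9.501 points (391 regions), compared with 6.19 over all such regions. For Zfp exons it was 7.76 (79 regions). Among the members, the median was 10.6 points in pseudogene exons and 11.4 in Zfp exons, against 10.4 over all 390. CpG density can be read in the same way. With the middle-level regions other than members divided into 4 groups of about equal size by density, the median arsenic SD went from 5.36 over 5.89 and 6.41 to 7.19 points from the sparsest to the densest group, and the share with an arsenic SD of at least 12 points from 3.89 to 13.6%, with 73.2, 76.2, 76.5 and 71.0 calls per CpG.

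In all, 266 genes held a member in their promoter or body, and 5 of them (Gnas, Gpc6, Tshz2, Zfp13 and Zfp865) held more than 1. The members were 0.922% of all eligible regions, and at that share each gene list would hold less than 1. Of the lists, that of maternally imprinted genes had 3 members among its 47 eligible regions, of which 2 lay in Gnas and 1 in Kcnq1ot1. Of these 47, 34 had an arsenic mean of 20 to 80%, a range in which 365 of 17396 regions were members. The overall share is thus a low yardstick for this list, and the 3 are not read as an enrichment. Gnas is an imprinted locus that encodes the alpha subunit of the stimulatory G protein. Its 2 members, both in 5′UTR sequence (chr2:174328905-174328979 with 15 CpGs and chr2:174328544-174328782 with 30 CpGs), were next to each other. In the first, the control pools stood at 34.8, 20.4, 51.6, 53.7 and 24.6% and the arsenic pools at 22.5, 39.3, 34.6, 29.98 and 51.5%. In the second, they stood at 27.8, 38.8, 47.5, 59.0 and 22.7% and at 46.4, 30.7, 61.6, 53.8 and 65.5%. Control pools 3 and 4 were the highest in both, and arsenic pool 5 was as well. Kcnq1ot1, the antisense noncoding RNA at whose start the maternal imprint of its domain lies, held a member of 11 CpGs 1006 b into the transcript.
Kcnq1ot1: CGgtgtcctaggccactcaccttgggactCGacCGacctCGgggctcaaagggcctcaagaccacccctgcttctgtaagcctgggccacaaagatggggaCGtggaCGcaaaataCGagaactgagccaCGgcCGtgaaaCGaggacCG

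The Kcnq1ot1 region (chr7:143295469-143295618) had control levels of 38.3, 22.8, 22.0, 4.49 and 16.6% and arsenic levels of 17.6, 7.68, 33.0, 15.8 and 27.2%, so that both groups fell below 10% in 1 pool and passed 30% in another. Among genes of the methylation machinery, 1 of 33 eligible regions was a member, the promoter of Ctcfl, a testis-specific relative of the insulator protein CTCF (chr2:173119725-173119955). It stood at 64.0, 36.7, 49.2, 65.7 and 47.5% in control (SD 12.2) and at 35.2, 74.7, 70.0, 59.2 and 79.9% in arsenic (SD 17.7). The list of genes with known metastable epialleles had 1 member of 27 regions, in an intron of Fam78b (control SD 12.7, arsenic SD 5.50). No member lay in the 12 regions of paternally imprinted genes, the 23 of germline promoters, the 46 of fetal somatic testis genes, the 92 of homeobox clusters or the 41 of protocadherins. With lists this short, a count of 0 or 1 is near the overall share and says nothing about a list. Across the 23 regions in or near the genes of the germline promoter list the median control SD was 4.25 points and the median arsenic SD 10.1. A member 286 b inside Stra8, the gene that germ cells need to enter meiosis and that was named after its values had been seen, had an SD of 14.9 points in control, with 87.4% in control pool 4, and of 16.9 in arsenic, from 37.4 to 82.4%.

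Ctcfl: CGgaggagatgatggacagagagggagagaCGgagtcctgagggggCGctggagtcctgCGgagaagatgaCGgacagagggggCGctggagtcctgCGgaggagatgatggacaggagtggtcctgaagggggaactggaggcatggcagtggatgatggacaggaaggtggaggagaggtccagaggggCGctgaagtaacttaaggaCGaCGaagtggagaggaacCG
The Ctcfl sequence is shown because its promoter carried the only member among the genes of the methylation machinery.

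The arsenic pools also differed from each other in these regions. The median arsenic SD over the 390 was 10.4 points, against 6.19 in the middle-level regions and 3.04 over all eligible regions. An SD of at least 12 points over the arsenic pools was reached by 129 members (33.1%), while the share was 8.55% of all 17396 regions with an arsenic mean of 20 to 80% and 3.54% of all eligible regions. The 129 were 8.61% of the 1499 eligible regions that reached it. At matched arsenic means the same order held: between 60 and 70% the median arsenic SD was 11.5 points in 131 members and 7.23 in the rest, and between 30 and 40% it was 7.99 points in 32 members and 6.21 in the rest. Below 10%, 4 members had a median of 0.512 points against 0.707. No test was run across regions, since regions of 1 pool are not independent.

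**Figure D4:**
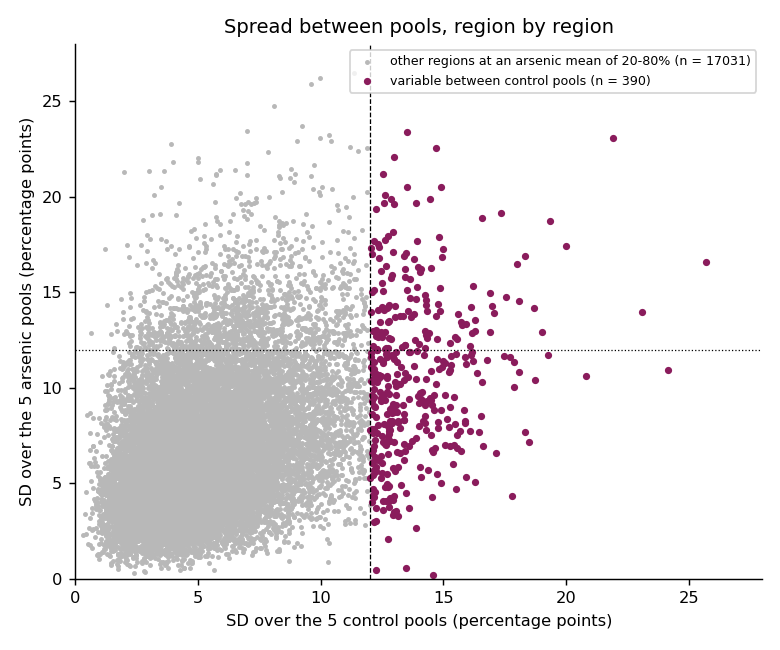
SD over the 5 arsenic pools against SD over the 5 control pools, both in percentage points, for the 390 members (dark points) and the 17031 other middle-level regions (grey points), with lines at 12 points. The members lie to the right of the dashed line by the rule, and 129 of them lie above the dotted line.

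How much spread counting alone would give depends on what is counted. If each call were independent, counting alone would give a median SD of 2.46 points in the control pools of the members. The CpGs of a region lie on the same reads, and with 1 read as 1 unit, counted by the mean calls per CpG, the median was 7.001 points in control and 6.32 in arsenic. The arsenic SD was 1.58 times this counting SD in the members (median), compared with 1.12 times in the middle-level regions. It exceeded the counting SD in 326 of the 390 (83.6%), against 58.7% of the middle-level regions and 35.1% of all eligible regions. Reads counted at both mates or copied by PCR would raise the counting SD further. Over all 17396 regions with an arsenic mean of 20 to 80%, however, the control SD was 0.859 times this counting SD (median). It exceeded the counting SD in 36.6% of them, so the counting SD is no lower bound. Between 54.1 and 58.3% of cytosines in a pool had an even coverage, and the part of mates counted together was not tested.

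Some of the arsenic spread was shared across regions, with arsenic pool 1 low and arsenic pool 5 high. The mean level over the 390 was 47.6, 56.2, 58.9, 61.2 and 66.7% in arsenic pools 1 to 5, and 53.8, 59.5, 61.0, 62.1 and 64.4% in the middle-level regions. Arsenic pool 1 was the lowest of its group in 230 members and arsenic pool 5 the highest in 212. Pool 5 lay above pool 1 in 348 members (89.2%), by a median of 19.07 points, and in 82.6% of the middle-level regions, by 9.30 points. The germline promoters rose in the same order, from 45.7% in arsenic pool 1 to 68.3% in arsenic pool 5. So did the regions at paternally imprinted genes, from 23.4 to 31.9%, and the mean over all autosomal cytosines, from 42.0 to 47.1%. The promoter regions of maternally imprinted genes were lowest in pool 1, at 16.8%. The part of cell makeup in this order of the arsenic pools was not tested.

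Part of the spread was left without those pools. Without arsenic pool 1 the median arsenic SD of the members was 8.35 points and 81 (20.8%) reached 12 points, against 3.46% of the middle-level regions. Without pool 5 the values were 9.44 points and 112 members. Without both it was 6.86 points and 56 members (14.4%), against 4.48 points and 2.85%. When the median deviation of each pool from its group mean had been subtracted, the median was 8.55 points in the members and 5.39 in the middle-level regions, and 73 members (18.7%) reached 12 points, against 3.47% of all regions with an arsenic mean of 20 to 80%.

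**Figure D5:**
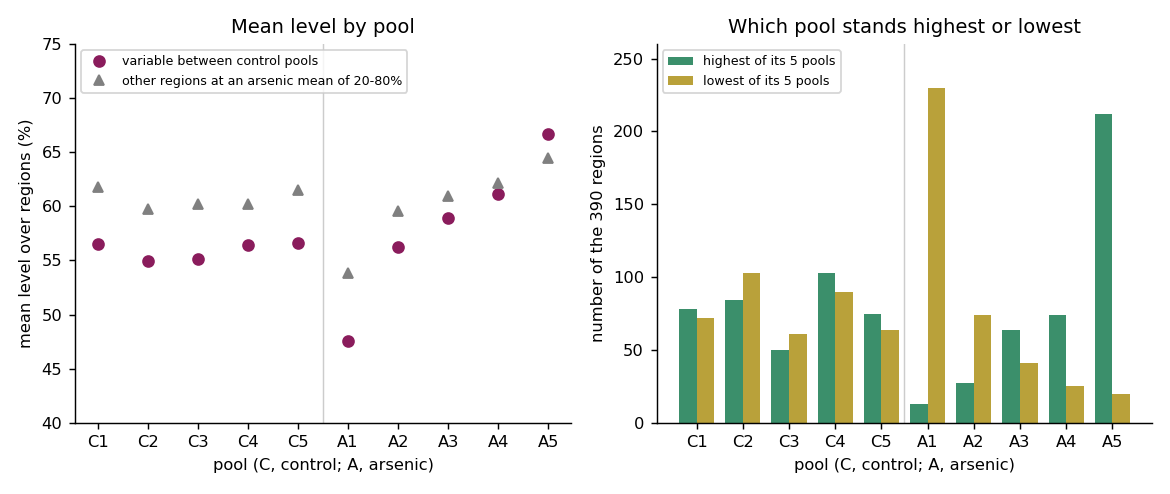
Left, mean level in percent over the 390 members (circles) and the 17031 other middle-level regions (triangles) in each pool, on an axis that starts at 40%. Right, number of the 390 in which each pool is the highest or the lowest of its group, 212 times highest for arsenic pool 5 and 230 times lowest for arsenic pool 1.

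In the members that varied most in the arsenic pools, arsenic pool 1 was the lowest and arsenic pool 5 the highest. The largest arsenic SDs were in an intron of Eps8, an actin regulator (chr6:137630434-137630546), the Gm9923 promoter, a coding exon of Runx2, a transcription factor of bone (chr17:44724775-44724890), the promoter of AC087233.1 (chr17:87949886-87950000) and an intron of 4932411K12Rik (chr13:101403557-101403791). Eps8 stood at 35.4, 66.3, 38.9, 79.1 and 87.4% in the arsenic pools (SD 23.4) and at 61.6, 72.7, 69.9, 41.3 and 74.1% in control (SD 13.5). Arsenic pools 1 and 3 were the low ones there. Runx2 stood at 23.6, 64.8, 64.3, 76.2 and 80.5% in arsenic (SD 22.6) and at 61.7, 46.7, 48.1, 70.9 and 32.8% in control (SD 14.7), with arsenic pool 1 alone low. AC087233.1 was at 34.9% in arsenic pool 1 and 56.5 to 89.4% in the others (SD 22.1), and 4932411K12Rik at 22.6% in pool 1 and 58.6 to 78.2% in the others (SD 21.2). At the other end, the smallest arsenic SDs were those of Rnf19a (0.203), Hipk2 (0.441) and 4930532G15Rik (0.584), the regions whose spread came from 1 control pool.

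The members with the most CpGs were the 30-CpG region of Gnas, a region of 27 CpGs in a coding exon of Prrc1 (chr18:57363094-57363458, control SD 12.3, arsenic SD 6.24) and one of 25 CpGs over 758 b at Trerf1 (chr17:47328336-47329093, 12.5 and 7.50). Just inside the threshold were Rorb (arsenic SD 11.8), Gm47805 (7.81) and Tshz2 (5.28), and just outside it, at control SDs that round to 12, Redrum (3.88), Sorcs2 (7.62) and 1110002E22Rik (8.74).

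Whether arsenic and control differ was also asked of these regions, with limma fitted over all 42288 eligible regions on log2((methylated + 1)/(unmethylated + 1)). By its methods, the study tested single CpGs with logistic regression. Its calls and those given here are therefore of an unlike unit and test. No region was called at an adjusted p of 0.05 with a difference of at least 10 points (0%), among the members or elsewhere. An unadjusted p under 0.05 was found in 15 members, 5 higher and 10 lower in arsenic, or 3.85%, against 6.96% of all eligible regions. The control and arsenic levels did not overlap in 2 members (0.513%), against 1.41% of all. The control values that enter this difference also chose the regions, and a wide control spread makes a difference harder to call. The mean of the arsenic pools was above that of the control pools in 254 members (65.1%) and in 46.5% of the other eligible regions, with a median difference of 2.61 points in the members. The control means in this comparison come from the pools that chose the regions. The share is therefore a description and is not read as a gain with arsenic.

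The smallest unadjusted limma p among the members was at Rapgef4, which encodes a cAMP-regulated exchange factor (intron, chr2:72039051-72039199). The control pools stood at 47.6, 52.0, 27.8, 55.9 and 30.4% and the arsenic pools at 22.1, 28.6, 32.8, 21.1 and 11.6%, and 2 control pools lay among the arsenic ones. Its log2 ratio fell by 1.35 (SE 0.43, limma adjusted p = 0.708). In an intron of Prrc2b (chr2:32174327-32174494), control levels of 66.9, 21.5, 41.2, 44.7 and 37.4% stood beside arsenic levels of 14.5, 31.4, 34.5, 13.4 and 12.2% (log2 difference -1.54, SE 0.55, limma adjusted p = 0.708). In 5′UTR sequence of Rorb, a nuclear receptor gene (chr19:18987981-18988070), control levels of 59.4, 58.4, 65.6, 68.2 and 37.6% stood beside arsenic levels of 58.0, 74.8, 82.0, 89.4 and 80.7% (log2 difference 1.39, SE 0.48, limma adjusted p = 0.708). Taken alone, the exact permutation test over all assignments of the pools, two-sided, gave p = 0.0397 for Rapgef4 and for Prrc2b and p = 0.0476 for Rorb, but these 3 were named because their limma p was the smallest of 390. The groups overlapped in all 3.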

How the data were processed

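Prospermatogonia of 5 control and 5 arsenic pools were analysed by RRBS. According to the methods of the study and the submitters' processing notes, reads were trimmed with Trim Galore 0.6.5, mapped to mm10 with Bismark 0.22.3 and tabulated with methylKit 1.22.0. The authors deposited raw counts of all, methylated and unmethylated calls at 1349101 cytosines of CpGs in each pool, with a lowest coverage of 10. The treatment of PCR duplicates and of overlapping mates is not given in the sources used here. Samples were grouped by their titles, and no column of per-sample values was left unmapped (0).

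Strands were merged to 1016650 autosomal CpGs, and levels were taken from summed calls per region. Total calls per pool ranged from 44483871 to 66996580. Places were taken from GENCODE release M21 (basic set) on GRCm38, in the order promoter, 5′UTR, 3′UTR, coding exon, noncoding exon, intron and intergenic, and 50-base words every 10 b were counted over chromosomes 1 to 19, X and Y on both strands. Arsenic and control were compared with limma 3.58.1 (R 4.3.3) on log2((methylated + 1)/(unmethylated + 1)), Benjamini-Hochberg adjusted over all eligible regions, and at named regions by an exact permutation test, two-sided. The limma step was tested on simulated data in which pools of a group differed only by counting. That test does not bear on regions with a wide spread between pools. Python 3.11.15 with numpy 2.4.6, scipy 1.17.1 and pandas 2.3.3 was used.

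Named were the 10 regions with the largest control SD, 3 on each side of the threshold, the 5 largest and 3 smallest arsenic SDs, up to 3 members per gene list, the 3 smallest limma p and the 3 with the most CpGs. The regions and gene lists were chosen with earlier results of these data known. Where the labels do not say which animals a pool holds, p-values measure the spread between pools only.

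As a check of the pairing, the deviations of control and arsenic pools with the same number had correlations of -0.0676 to 0.0746 over regions, so the numbers were not used as pairs.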

Additional observations from a re-analysis of the deposited data

Results flagged for a closer look

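In 6 of 66 groups of 5 pools examined (9.09%), 1 pool lay far from the other 4 by Dixon's ratio, the control groups of the variable regions included, and about 1 in 20 would do so without any cause. In the arsenic group, pool 1 was low at Gm9923 (22.2%, against 68.0 to 78.6%), at Hsf5 (44.0%, against 67.3 to 71.8%) and at Runx2 (23.6%, against 64.3 to 80.5%). The control values are given as a description only, because a region with 4 pools near 0 can reach the SD that chose it only through 1 outlying pool. There, pool 4 was high at Rnf19a (33.9%, against 0.302 to 2.27%) and at Hipk2 (28.6%, against 1.02 to 1.57%), and pool 2 was high at 4930532G15Rik (31.5%, against 0.431 to 4.19%). The named regions had been chosen in part for a wide spread, which makes such gaps more frequent.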

How the results depend on the processing

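The number of regions variable between control pools (390) depended most on depth and on the threshold. It was 1200 with at least 100 summed calls per pool, 58 with at least 400, 155 with at least 10 CpGs, 1086 at an SD of at least 10 points, 82 at an SD of at least 15 points, and 586 without control pools 2 and 4, an alternative chosen after seeing the data. Of these regions, 435, 21, 61, 484 and 10 reached the same SD in the arsenic pools under the first 5 of these settings, and 2745, 446, 537, 3067 and 457 of the eligible regions did. The plus strand alone gave 758 eligible regions with an arsenic SD of at least 12 points and the minus strand alone 719, where fewer regions could be used. With pool-wide shifts removed, also chosen after seeing the data, 73 members and 610 eligible regions reached it, and without arsenic pools 1 and 5, also chosen after seeing the data, 56 and 565. Leaving out 1 control pool at a time gave 438 to 552 variable regions, always more than 390. Leaving out an arsenic pool cannot change this count. With any 1 pool left out, 81 to 163 variable regions had an arsenic SD of at least 12 points, as did 680 to 2218 eligible regions. The 81 and the 680 were both found without arsenic pool 1. The median arsenic SD stayed between 6.86 and 11.4 points under all alternatives, from 8.35 to 10.99 with 1 pool left out. Smaller changes came from gaps of 50 or 200 b, at least 3 CpGs, unweighted means of CpG levels, removal of the deepest CpGs and thinning to 200 calls. The cause of these changes was not tested beyond the number of regions each setting admits.

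The count of limma calls was 0 under every alternative but 1, and stayed 0 with each pool left out. Logistic regression on single calls without overdispersion, which takes each call as independent, called 937 regions, 73 of them members, and with overdispersion it called 0. The replicate block gave 0 calls, with 2680 regions and 26 members at an unadjusted p under 0.05 (2943 and 15 without it), and since the numbers did not pair the pools this says nothing about the strength of a difference. The limma differences at Prrc2b, Rapgef4 and Rorb, the regions for which a difference is given, kept their direction, from -1.88 to -1.17, from -1.58 to -1.07 and from 1.09 to 1.73 with 1 pool left out. Depth limits these regions, since the pool with the fewest calls per CpG had a median of 34.4 in them, and spread from counting cannot be separated from spread between animals or cells.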

Other observations

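The 45 promoters among the variable regions belonged to 14 protein-coding genes (31.1%), 19 pseudogenes (42.2%) and 12 other noncoding genes (26.7%). In the 1224 other promoter regions at a middle level these shares were 41.7, 24.7 and 33.6%, and over all 10581 eligible promoter regions 80.9, 4.34 and 14.7%. Levels differed between these kinds of promoter: the median control level was 61.1% at pseudogene promoters and 1.09% at protein-coding promoters over all eligible regions. Outside the variable regions, the median arsenic SD at middle-level promoters was 9.40 points for pseudogenes and 7.18 for protein-coding genes. Among the 45 promoters of the variable regions the order was the other way, at 8.64 points for pseudogenes and 9.58 for protein-coding genes. For other noncoding genes it was 10.2 points there and 6.57 outside.

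Some protein-coding promoters are named here after their values had been seen. At Pramel1, of the PRAME family expressed in testis, the control SD was 14.1 points and the arsenic SD 16.2, around means of 54.2 and 48.1%. At Csf2ra, a cytokine receptor gene, the control SD was 17.8 points while the arsenic SD was 4.34, around close means of 47.8 and 48.6%.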
